A study of Mus musculus with 6 samples.

Results

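Of 2028 YY1 peaks in activated mouse muscle satellite cells, 773 lay outside every gene locus. They were chosen by position alone: a peak overlapped no locus given for any gene in the deposited expression tables, and no locus end lay within 2 kb of it. The other peaks comprised 623 within 2 kb of a locus end and 632 deep inside a locus, and 3 further peaks on the Y chromosome were left out of a deposited list of 2031. The names of the 2028 peaks are numbered up to 20526, so the list appears to be a subset of a longer one, and the rule that chose it is not stated. All shares, densities and distances between peaks below are those of the deposited subset. Satellite cells are the resident stem cells of skeletal muscle, quiescent until injury and then activated to divide and form new fibres. RNA was sequenced from satellite cells either directly after isolation (FISC) or after 36 h of culture in F10 medium with serum, when they are activated (ASC). In each state there was 1 wild-type (WT) library and 1 library in which Yy1 was knocked out, labelled iKO. The immunoprecipitation of YY1, with a rabbit polyclonal antibody, and its input came from ASC labelled C57 without a knockout. The labels call the cells adult muscle satellite cells. How the knockout was induced, the age and sex of the animals and any pooling of animals are not stated there. With 1 library for each of the 6 samples, nothing below has a replicate or a test between conditions. Intervals in parentheses are exact 95% intervals after Clopper and Pearson for shares and describe counting error alone.

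YY1 is a zinc finger transcription factor that binds a short DNA motif with the core ATGG and can activate or repress transcription. It is best known at promoters of housekeeping genes, and it also binds enhancers, where it has been reported to hold enhancers and promoters together. The nearest gene is a statement of position; whether a peak acts on that gene was not measured.

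A few sequences come from the nearest genes of some of these peaks, and lie kilobases away from the outside peaks themselves. Near 2 of the 27 peaks that reached a q-value of 0.05 (defined below), the nearest annotated genes on mouse chromosomes 13 and 15 were precursors of let-7 microRNAs, a family that represses growth genes after it pairs with their transcripts. They were chosen for display after their values were seen. MicroRNA symbols (Mir) made up 1.70% of all nearest genes of outside peaks (0.881 to 2.95%), against 4.76% of all genes. Where a microRNA shared its locus with a plain gene symbol, the nearest gene was counted under the plain symbol, which lowers the first share. The mature let-7 forms of those loci, from RefSeq (GRCm38.p6), share the seed (bases 2 to 8, in capitals) and differ from each other at 1 or 2 of their 22 bases.
mmu-let-7a-5p: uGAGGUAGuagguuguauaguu
mmu-let-7b-5p: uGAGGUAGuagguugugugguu
mmu-let-7c-5p: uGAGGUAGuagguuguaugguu
The next sequences are the promoter windows of a pair of genes that had an outside peak as well as a peak at a locus end, running from 250 bases before to 50 bases after the RefSeq start. That of Map1lc3b, which encodes the autophagosome protein LC3B, is on the plus strand at chr8:121590188-121590487 (GRCm38.p6), and its capitals mark 2 copies of the bare letters ATGGC.
Map1lc3b: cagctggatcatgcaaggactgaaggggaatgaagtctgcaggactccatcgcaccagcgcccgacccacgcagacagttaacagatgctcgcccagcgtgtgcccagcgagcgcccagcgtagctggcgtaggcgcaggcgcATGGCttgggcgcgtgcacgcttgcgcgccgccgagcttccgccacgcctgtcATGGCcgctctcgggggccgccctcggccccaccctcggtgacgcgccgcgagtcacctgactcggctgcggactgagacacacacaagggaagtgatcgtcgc
That of Sfswap, which encodes a splicing regulator, is on the plus strand at chr5:129500981-129501280 (GRCm38.p6). Its capitals mark a match to the longer YY1 motif AANATGGC, which contains ATGGC, with its first base at position -170 from the start. The outside peak of Sfswap was not among the 27 that reached q of 0.05. Of the 9 nearest genes with both an end peak and a promoter window, 3 held the longer motif on either strand, Sfswap among them. The window of Ptma, another of the 9, held neither the longer motif nor the bare letters.
Sfswap: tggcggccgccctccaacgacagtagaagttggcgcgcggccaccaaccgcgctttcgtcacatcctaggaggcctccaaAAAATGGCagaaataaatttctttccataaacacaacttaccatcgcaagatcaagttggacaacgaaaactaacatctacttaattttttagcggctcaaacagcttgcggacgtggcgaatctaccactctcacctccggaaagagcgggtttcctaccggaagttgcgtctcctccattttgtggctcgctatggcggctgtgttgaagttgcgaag

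Peaks outside gene loci were mostly among the weakest of the list. The authors' caller gave each peak a fold enrichment over local background, a p-value and a q-value (a p-value adjusted for the number of places tested), and these values are the authors' own. Only 27 of the 773 peaks (3.49%, 2.31 to 5.04%) reached q of 0.05, which is a −log10 q of 1.30 or more. Among peaks near locus ends the count was 290 of 623 (46.5%, 42.6 to 50.6%), and deep inside loci it was 30 of 632 (4.75%, 3.23 to 6.71%). The shares for outside and deep-inside peaks have overlapping intervals, and that for peaks near ends lies far above both. At a −log10 q of 5 or more, 7 outside peaks, 150 near ends and 11 deep inside were left. The median fold of outside peaks was 4.12 (10th to 90th percentile 3.62 to 4.57, highest 11.4), equal to the 4.12 of deep-inside peaks and below the 4.75 of those near ends (highest 24.4). A single pair of values, fold 4.12 with −log10 p 4.84, was shared by 382 outside peaks (49.4%), against 40.7% of deep-inside peaks and 10.8% of those near ends. With the next most common values, at folds of 3.62 and 4.57, it covered 615 outside peaks (79.6%), so the ranking among most of them rests on ties. The median width was 107 bp, against 130 bp near ends and 108 bp deep inside. At the edge of the rule, the nearest kept peaks lay 2063 bp from Vmn1r223 (fold 3.62), 2070 bp from Usp17la (4.12), 2115 bp from Pde1c (5.01), 2120 bp from Fam65c (5.32) and 2206 bp from Ier2 (4.34). Just beyond it, excluded peaks lay 1975 bp from Olfr1414 (fold 4.12), 1961 bp from Taf6l (4.12) and 1943 bp from Arid2 (5.01).

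The share of peaks outside loci was lower at the strong end of the list than at the weak end. Of the 359 peaks with −log10 q of 0, 158 were outside (44.0%), and of the 969 above 0 and up to 0.5, 457 were (47.2%). The share was 37.1% of 353 peaks up to 1.30, then 15 of 87 (17.2%, 9.98 to 26.8%) up to 3. It was 5 of 92 (5.43%) up to 5, 4 of 86 (4.65%) up to 10, and 3 of 82 (3.66%, 0.761 to 10.3%) above 10. Bases outside loci made up 58.6% of the span.

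**Figure D1:**
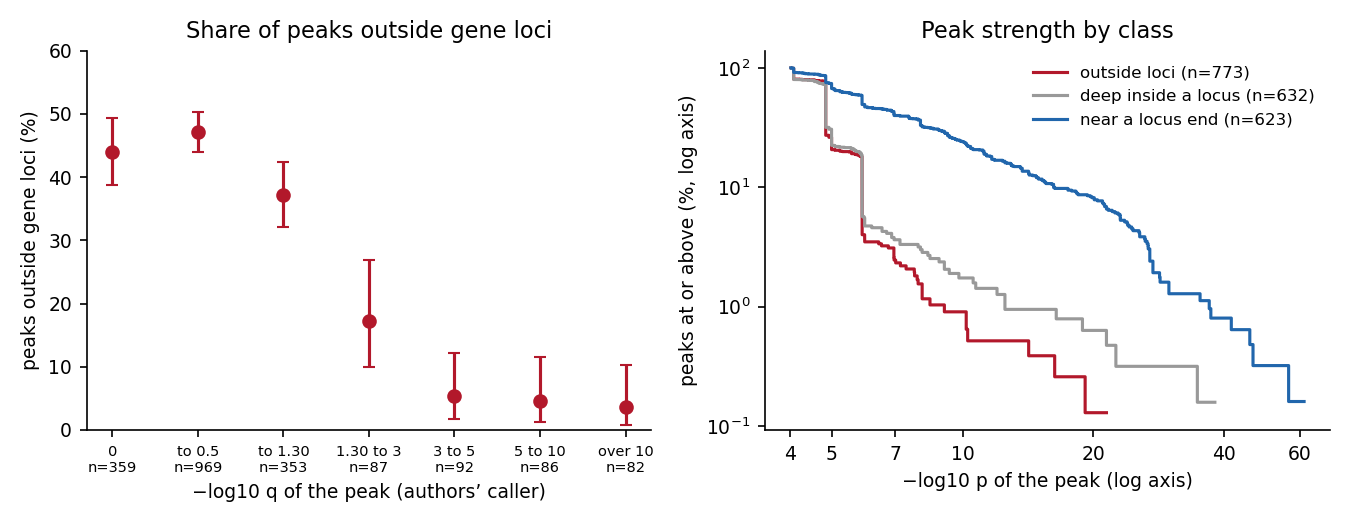
Left, share of peaks outside gene loci (%) by the −log10 q of the peak, with exact 95% intervals and the number of peaks in each bin; it drops from 47.2% to 3.66%. Right, share of peaks (%, log axis) at or above a given −log10 p (log axis) for peaks outside loci (red), deep inside (grey) and near ends (blue); the red and grey lines run together and end at 21.5 and 38.2, the blue at 61.3.

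Per length of genome, outside peaks were the sparsest. Bases beyond 2 kb of any locus made up 1510 Mb and held 5.12 peaks per 10 Mb, against 6.89 in the 918 Mb deep inside loci and 42.4 in the 147 Mb near ends. For peaks at q of 0.05 or less the densities were 1.79 per 100 Mb outside, 3.27 deep inside and 198 near ends. Weaker peaks were also densest near ends, at 22.7 per 10 Mb against 4.94 outside. By chromosome, the density outside loci ran from 2.69 per 10 Mb on chromosome 14, with 20 peaks, to 7.78 on chromosome 13, with 56. The X chromosome had the highest share of its peaks outside loci, 42 of 65 (64.6%, 51.8 to 76.1%), while 71.5% of its span lay outside loci and its density was 3.60 per 10 Mb. Outside peaks rarely stood together. The median distance to the next peak of any class was 469 kb, 16 had another peak within 10 kb, and no chain of 3 or more with neighbours within 10 kb occurred.

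Many outside peaks lay far from their nearest gene. Distances to the nearest locus ran from 2.06 to 1525 kb, with a median of 53.7 kb (interval of the median 40.9 to 65.2 kb) and quartiles of 14.5 and 170 kb. There were 67 peaks up to 5 kb, 75 from 5 to 10 kb, 235 from 10 to 50 kb, 114 from 50 to 100 kb, 222 from 100 to 500 kb and 60 beyond 500 kb. Since 51.2% of the peaks lay over 50 kb away, the nearest gene of many was a distant one. The nearest locus of a gene at 1 FPKM or more in ASC WT was 166 kb away at the median (139 to 198 kb).

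Measured against the bases available at each distance, peaks thinned out away from genes. The density was 7.71 per 10 Mb at 2 to 5 kb, 6.73 at 5 to 10 kb, 5.72 at 10 to 50 kb, 5.17 at 50 to 100 kb, 4.41 at 100 to 500 kb and 3.38 beyond. Bases beyond 500 kb were 11.7% of the outside territory and held 7.76% of the peaks, and those at 2 to 5 kb were 5.76% and held 8.67%. The 27 stronger peaks lay closer still. Their median distance was 18.1 kb (5.81 to 60.1 kb), and 10 of the 27 (37.0%, 19.4 to 57.6%) were within 10 kb of a locus, against 132 of 746 weaker ones (17.7%, 15.02 to 20.63%). None of the stronger peaks lay beyond 500 kb. On the strand that RefSeq gives the nearest gene, which could be used for 531 peaks, 276 lay upstream of it (52.0%, 47.6 to 56.3%). Within 10 kb the upstream count was 59 of 95 (62.1%, 51.6 to 71.9%), and beyond 50 kb 139 of 276 (50.4%).

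**Figure D2:**
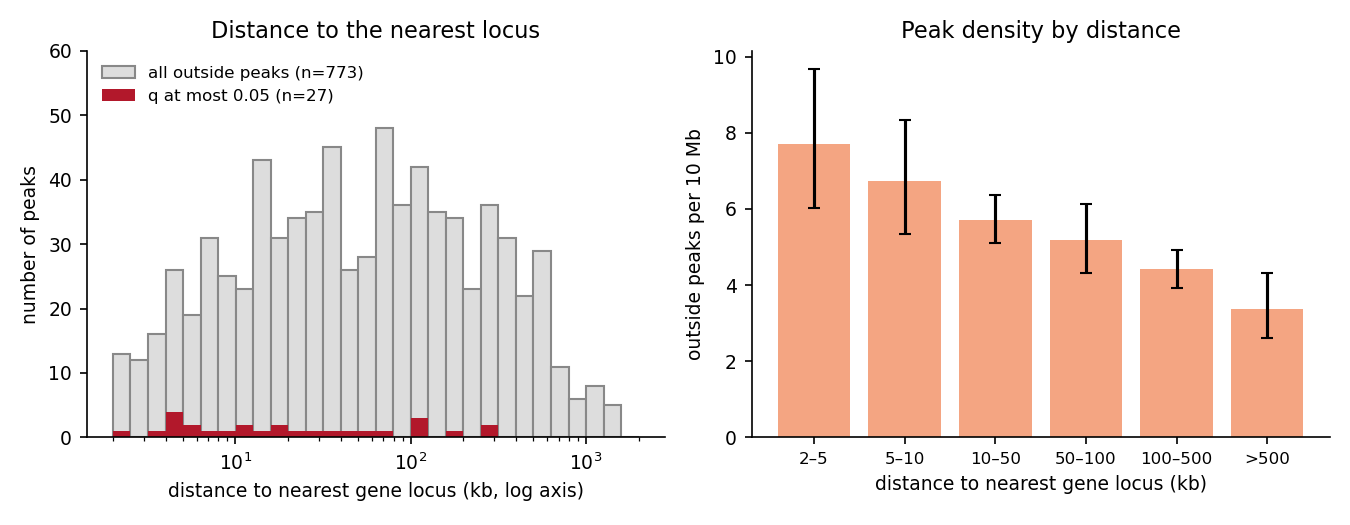
Left, number of outside peaks by distance to the nearest gene locus (kb, log axis), all 773 in grey and the 27 at q of 0.05 or less in red. Right, outside peaks per 10 Mb of genome at each distance (kb), with exact 95% intervals of the count share scaled to density; the bars step down from 7.71 to 3.38.

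A locus is absent here only in the sense of the deposited tables. Later RefSeq annotation (GRCm38.p6) was read for gene order, without coordinates. It placed at least 1 further gene between the genes flanking the peak in 578 of 690 peaks that could be assessed (83.8%, 80.8 to 86.4%), and in 16 of 18 of the stronger ones. These were 2402 genes, of which 933 were pseudogenes, 886 long noncoding RNA genes and 67 protein-coding genes, the last between the flanking genes of 49 peaks. Where within the interval such a gene lies relative to the peak was not determined, since the builds differ.

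The strongest outside peaks lay a few kilobases from Nr3c1, 1110034G24Rik, Srek1, Map1lc3b and Slc12a9, or at distances of up to 253 kb from other genes. All positions of peaks that follow are in mm9. The peak with the lowest p-value, chr18:39651276-39651657, had a fold of 11.4 and a −log10 p of 21.5, and lay 4.38 kb from Nr3c1, which encodes the glucocorticoid receptor. The tables of FISC and ASC may have been normalized separately, so levels set across the states are a description. Nr3c1 was at 14.9 FPKM in FISC WT, 13.6 in FISC iKO, 13.0 in ASC WT and 6.64 in ASC iKO, lowest in the ASC iKO library. A second peak of Nr3c1 lay 107 kb away, with a fold of 5.45 and a −log10 q of 2.08. The next, chr2:132512532-132512771 (fold 10.1, −log10 p 19.2), was 3.25 kb from 1110034G24Rik, a gene at 2.14 FPKM in ASC WT and 2.13 in ASC iKO. The peak chr13:104564195-104564358 (fold 8.60, −log10 p 14.2) was 9.53 kb upstream of Srek1, a splicing regulatory protein gene. Srek1 was level over the libraries, at 36.3 FPKM in FISC WT, 36.6 in FISC iKO, 30.6 in ASC WT and 30.5 in ASC iKO. The peak chr5:137779593-137779717 (fold 6.35) was 4.78 kb from Slc12a9, a cation-chloride cotransporter family member at 4.85 FPKM in ASC WT and 5.25 in ASC iKO.

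Map1lc3b, whose promoter window is printed above, was the only nearest gene of a q-passing outside peak that also had a peak at its locus end. The outside peak chr8:124109434-124109567 (fold 6.45, −log10 q 5.24) lay 4.80 kb from the locus. The end peak chr8:124114180-124114559, 4.61 kb from it, had a fold of 13.9 and a −log10 q of 21.7. Map1lc3b was at 130 FPKM in FISC WT, 128 in FISC iKO, 45.5 in ASC WT and 80.5 in ASC iKO, a log2 ratio of 0.81 in ASC. The window held no match to the longer motif, only the 2 bare ATGGC copies in capitals.

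Several strong peaks were distal or lay by genes without measured RNA. The peak chr1:102635438-102635550 (fold 6.74, −log10 p 10.2) was 253 kb from Cntnap5b, a neuronal contactin-associated protein gene listed at 0 in all 4 libraries. The peak chr7:67007560-67007664 (fold 5.01, −log10 p 8.41) was 6.55 kb from Snord116l2, an entry named for a cluster of small nucleolar RNAs and listed at 0. A trio tied at a fold of 5.90 and a −log10 p of 8.07. One, chr10:7232654-7232762, was 11.2 kb from B020014A21Rik, listed at 0. The second, chr15:36657661-36657925, was 42.1 kb from Ywhaz, a 14-3-3 adaptor protein gene at 199 FPKM in FISC WT, 176 in FISC iKO, 222 in ASC WT and 271 in ASC iKO. The third, chr5:147946127-147946229, was 23.2 kb from Polr1d, which encodes a subunit of RNA polymerases I and III. Polr1d was at 140 FPKM in FISC WT and 148 in FISC iKO, and at 189 in ASC WT and 399 in ASC iKO, so the ASC iKO library stood above the other three.

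In a pair of regions, several outside peaks stood close to each other. On chromosome 8, 4 of the 27 stronger peaks lay within 164 kb around 4930467E23Rik and Gm15319, with folds of 3.33 to 5.24 and −log10 p of 7.19 to 16.3. One of them, chr8:19784615-19784837, had the highest −log10 p of the outside peaks after those of Nr3c1 and 1110034G24Rik, with a fold of 4.999. Without that region 23 peaks were left at q of 0.05. On the X chromosome, 6 peaks lay within 36.2 kb near Gm5925, of which 1 (fold 6.74, −log10 p 10.2) passed. Whether reads could be placed uniquely in these regions was not tested. The genes there were listed at 0 or below 0.1 FPKM.

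The let-7 loci whose products are printed above were the nearest loci of weaker members of the q-passing peaks. The peak chr15:85514702-85514815 (fold 5.48, −log10 q 2.96) was 19.4 kb from a locus shared by Lincppara, Mirlet7b and Mirlet7c-2. Lincppara was at 1.34 FPKM in FISC WT, 0.709 in FISC iKO, 1.36 in ASC WT and 1.95 in ASC iKO. The peak chr13:48647973-48648108 (fold 5.70, −log10 q 2.85) was 14.3 kb from Mirlet7a-1. Polyadenylated RNA libraries do not measure mature microRNAs, and Mirlet7a-1 was listed at 0 throughout.

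**Figure D3:**
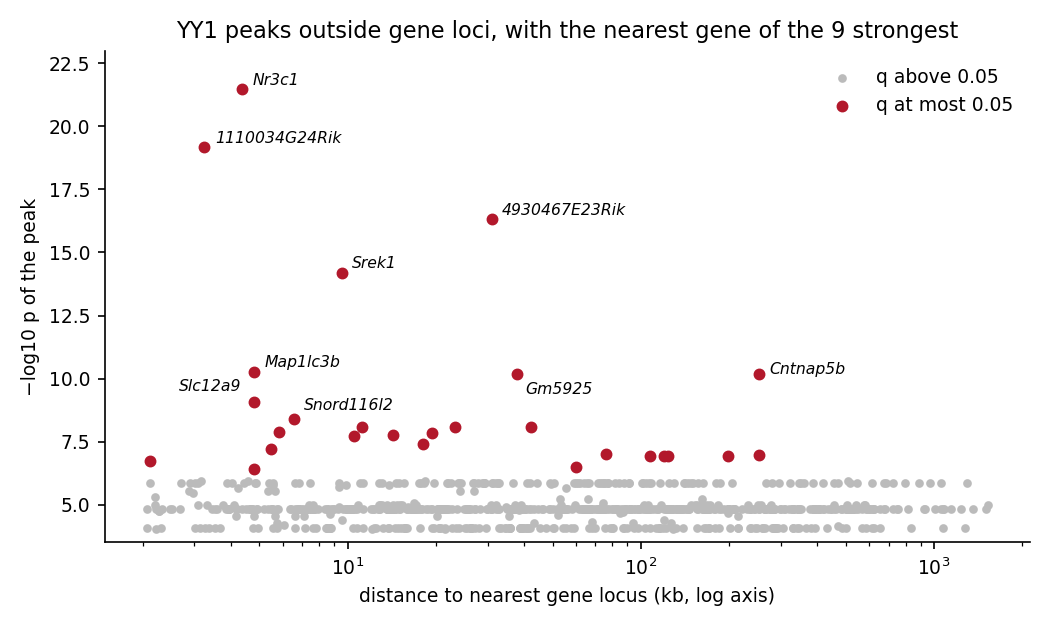
Each point is 1 of the 773 outside peaks, by distance to the nearest gene locus (kb, log axis) and −log10 p; red points are the 27 at q of 0.05 or less, and the 9 strongest carry the name of the nearest gene. Most points lie in flat bands of tied p-values, and the strongest, near Nr3c1 at 21.5, lies 4.38 kb from the locus.

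The 60 peaks beyond 500 kb of any locus were all at q above 0.05. The 4 farthest lay 1525 kb from Tmeff2, 1511 kb from Cdh8, 1362 kb from Rag2 and 1298 kb from Nlgn1, with folds of 4.12, 4.12, 4.12 and 4.57. Cdh8 and Nlgn1 are neuronal adhesion genes, and Rag2 encodes part of the lymphocyte recombinase. Rag2 was listed at 0 in all 4 libraries, and Cdh8 and Nlgn1 did not exceed 0.0784 FPKM (Nlgn1 in FISC iKO) in any. Tmeff2, a transmembrane protein gene, was at 1.91 FPKM in FISC WT, 6.77 in FISC iKO, 1.94 in ASC WT and 0.910 in ASC iKO.

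As a group, the nearest genes were expressed about as often as any gene. The 773 peaks had 706 distinct nearest genes, of which 650 belonged to 1 peak and 56 to several; the symbol was tied with others for 92 peaks. In ASC WT, 293 of 706 (41.5%, 37.8 to 45.2%) were at 1 FPKM or more, against 44.6% of all 24312 genes in the table. Genes with a peak near an end were at 87.5% (84.61 to 90.02%), and genes with a peak deep inside at 58.0% (53.9 to 62.0%). In FISC WT the nearest genes were at 45.2% and all genes at 45.0%. The median level in ASC WT was 0.205 FPKM for nearest genes, 0.309 for all, 2.82 for genes with a deep-inside peak and 17.4 for those with an end peak. Of the nearest genes, 225 were listed at 0 in both ASC libraries. The nearest genes of the 27 stronger peaks were at 14 of 24 (58.3%, 36.6 to 77.9%), an interval that also holds the share of all genes.

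Counted per base, outside peaks were sparsest where the nearest gene was listed at 0. Bases whose nearest locus was at 1 FPKM or more in ASC WT were 33.6% of the outside territory and held 40.8% of the peaks (37.3 to 44.3%), or 6.21 per 10 Mb. For nearest genes above 0 and under 1 FPKM it was 19.8% of the territory, 22.6% of the peaks and 5.87 per 10 Mb, and for those at 100 FPKM or more 5.41 per 10 Mb. Bases nearest to a gene listed at 0 were 46.4% of the territory and held 36.6% of the peaks (33.2 to 40.1%), or 4.04 per 10 Mb. Of the 27 stronger peaks, 15 were nearest to a gene at 1 FPKM or more and 8 to a gene listed at 0. How well reads can be placed differs along the genome, and its part in these densities was not tested.

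The share of nearest genes with a YY1 motif at the start was close to that of all genes and far below that of genes with end peaks. The motif AANATGGC, or GCCATNTT on the other strand, was searched in the RefSeq promoter windows, and a gene counted when any of its windows held it. It occurred in 6.96% of all 27025 genes and in 28 of 509 nearest genes with a window (5.50%, 3.69 to 7.85%). Among genes with an end peak it occurred in 268 of 565 (47.4%, 43.3 to 51.6%), and in 175 of 275 (63.6%, 57.6 to 69.3%) where that peak reached q of 0.05. Of the 12 nearest genes of stronger outside peaks with a window, 0 held it (0 to 26.5%). The bare letters ATGGC or GCCAT occurred in a window of 44.2% of all genes. Of the 706 nearest genes, 12 had an end peak of their own, beside 609 genes of end peaks among all 24450. Besides Map1lc3b the 12 included Ptma, encoding prothymosin alpha (end peak fold 12.5, outside peak 38.9 kb from the locus), and Sfswap (end peak fold 6.19, outside peak 15.3 kb away). Sfswap, whose window above carries AAAATGGC, was level over the libraries, at 25.7 FPKM in FISC WT, 25.1 in FISC iKO, 25.8 in ASC WT and 29.9 in ASC iKO. A match to these letters is a description, not a binding site, and the sequence under the outside peaks themselves was not analysed here.

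**Figure D4:**
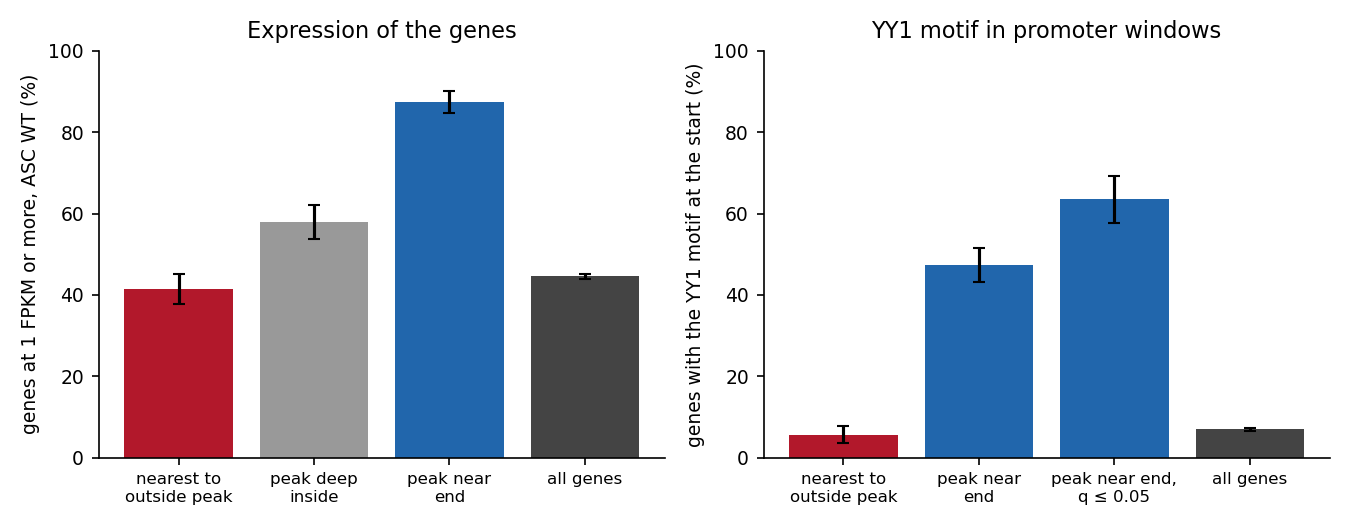
Left, share of genes (%) at 1 FPKM or more in ASC WT for the nearest genes of outside peaks, genes with a peak deep inside, genes with a peak near an end and all genes. Right, share (%) of genes with the YY1 motif in the promoter window; bars start at 0 and lines are exact 95% intervals, and the nearest genes (5.50%) sit at the level of all genes (6.96%), below genes with an end peak (47.4%).

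Loss of Yy1 was checked first. Yy1 was at 51.0 FPKM in FISC WT and 20.1 in FISC iKO, and at 55.2 in ASC WT and 2.03 in ASC iKO, so the depletion was deep in ASC and partial in FISC. Markers of satellite cells and myoblasts reached 1 FPKM for 12 of 12 genes in FISC WT, FISC iKO and ASC WT and for 10 in ASC iKO, with sums of 3696, 3527, 1500 and 1245 FPKM. In ASC WT and iKO, Pax7 was at 28.3 and 6.19 FPKM, Cd34 at 103 and 45.1 and Vcam1 at 62.2 and 27.6. Sdc4 (180 and 237 FPKM) alone of the 12 was higher in ASC iKO than in ASC WT. Sums for markers of other cells in ASC WT and iKO were 10.6 and 7.82 for fibroblast-like, 2.93 and 2.88 for endothelial, 1.62 and 0.775 for pericyte and 4.18 and 15.1 for immune markers (7 of 8 listed, Ptprc and Adgre1 at 0 in both). Erythroid markers were at 0 and 0.0561 there. In FISC WT and iKO the sums were 126 and 162 for fibroblast-like and 185 and 147 for erythroid markers. Endothelial sums in FISC were 17.8 and 14.7, pericyte sums 17.9 and 17.6 and immune sums 7.08 and 6.57. The part of these other cells in the ratios was not tested, and in bulk RNA fewer cells of a type and less RNA per cell cannot be told apart. The total depth is unknown; the steps of low values put the ASC iKO library at 0.67 reads per WT read and the FISC libraries at 1, read to 2 decimals.

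In ASC, the median ratio of the nearest genes was below 0, by a shift that was small beside the spread over genes. Ratios are log2 of (FPKM + 1) in iKO over WT for genes at 1 FPKM or more in either library, and a 2-fold difference is a rule of size, not a test. Of 304 such nearest genes, 15 (4.93%) were at least 2-fold higher, where the background over all 11215 genes was 8.74%, and 30 (9.87%) were at least 2-fold lower, with a background of 8.26%. The lower share is thus near the background and the higher share is below it. The median ratio was -0.16 (quartiles -0.58 and 0.34), against -0.0025 over all genes. It was 0.0091 over genes with an end peak and -0.38 over genes with a deep-inside peak. Ratios below 0 numbered 176 of the 304, against 5626 of 11215 over all genes. With an end peak they were 265 of 534, and with a deep-inside peak 249 of 342. Over these sets, locus length moved with the median ratio. Median length was 34.2 kb for the nearest genes, 24.5 kb for all, 24.1 kb with an end peak and 89.4 kb with a deep-inside peak. The part of length in the shift was not tested. The direction did not depend on distance in a simple way, with medians of -0.25 within 10 kb, -0.032 from 10 to 50 kb, -0.039 from 50 to 100 kb and -0.26 beyond. Median locus lengths in these bins were 29.4, 28.7, 54.1 and 65.9 kb in that order. The bins thus did not rank alike by length and by median ratio. Scaling the libraries to a common upper quartile moved the median of all genes to -0.15 and that of the nearest genes to -0.29; it left 6 higher (1.97%, background 5.30%) and 40 lower (13.2%, background 11.2%).

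The nearest genes with the lowest ratios in ASC were led by Arhgap5, Klf7 and Lama2. Arhgap5, a GTPase-activating protein gene 66.9 kb from its peak, was at 8.50 FPKM in FISC WT, 8.27 in FISC iKO, 18.8 in ASC WT and 1.39 in ASC iKO, a log2 ratio of -3.06 in ASC. Klf7, a Krüppel-like transcription factor gene 198 kb away, was at 8.33, 8.65, 5.71 and 0.339 FPKM in the same order (-2.33). Lama2, which encodes the laminin alpha chain of muscle basement membrane, was 102 kb away and at 75.4, 60.7, 17.4 and 3.74 FPKM (-1.95). In all of these the ASC iKO library was the low one. Pcdh18, a protocadherin gene only 3.95 kb from its peak, was at 26.6 FPKM in ASC WT and 6.34 in ASC iKO (-1.91). Nfic, a nuclear factor I gene, was the only one with a q-passing peak (fold 5.89, −log10 q 2.99, 5.81 kb away) and was at 40.5 and 12.4 FPKM (-1.64). The others were Impad1 (-1.81), Cdh11 (-1.63), Utrn (-1.40), Flrt2 (-1.35) and Car12 (-1.30). Their peaks lay between 19.7 kb (Car12) and 347 kb (Impad1) away. In FISC none of these 10 genes reached a 2-fold difference.

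The nearest genes with the highest ratios in ASC were led by Glrx3, Ptp4a1 and Sec61b. Glrx3, a glutaredoxin gene of iron handling 250 kb from its nearer peak, was at 37.9 FPKM in FISC WT, 38.5 in FISC iKO, 72.1 in ASC WT and 249 in ASC iKO, a log2 ratio of 1.78. Eif1, a translation start factor gene 2.89 kb from its peak, was at 1171, 1103, 543 and 1288 FPKM (1.24). Sec61b, of the endoplasmic reticulum translocon, was at 146 FPKM in ASC WT and 357 in ASC iKO (1.29), with its peak 245 kb away. Ribosomal protein genes Rps15a (107 and 243 FPKM, 1.18) and Rps29 (1494 and 3202 FPKM, 1.10) were 139 and 567 kb from their peaks. The others were Ptp4a1 (1.31), Tyw5 (1.22), Hddc2 (1.16), Marc2 (1.11) and Rpia (1.10). Among the nearest genes of the 27 stronger peaks, 14 could be compared: Polr1d (1.07) and Smarca2 (9.43 and 20.0 FPKM, 1.01), the latter an ATPase of SWI/SNF remodelers 253 kb from its peak, were at least 2-fold higher and Nfic was lower.

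**Figure D5:**
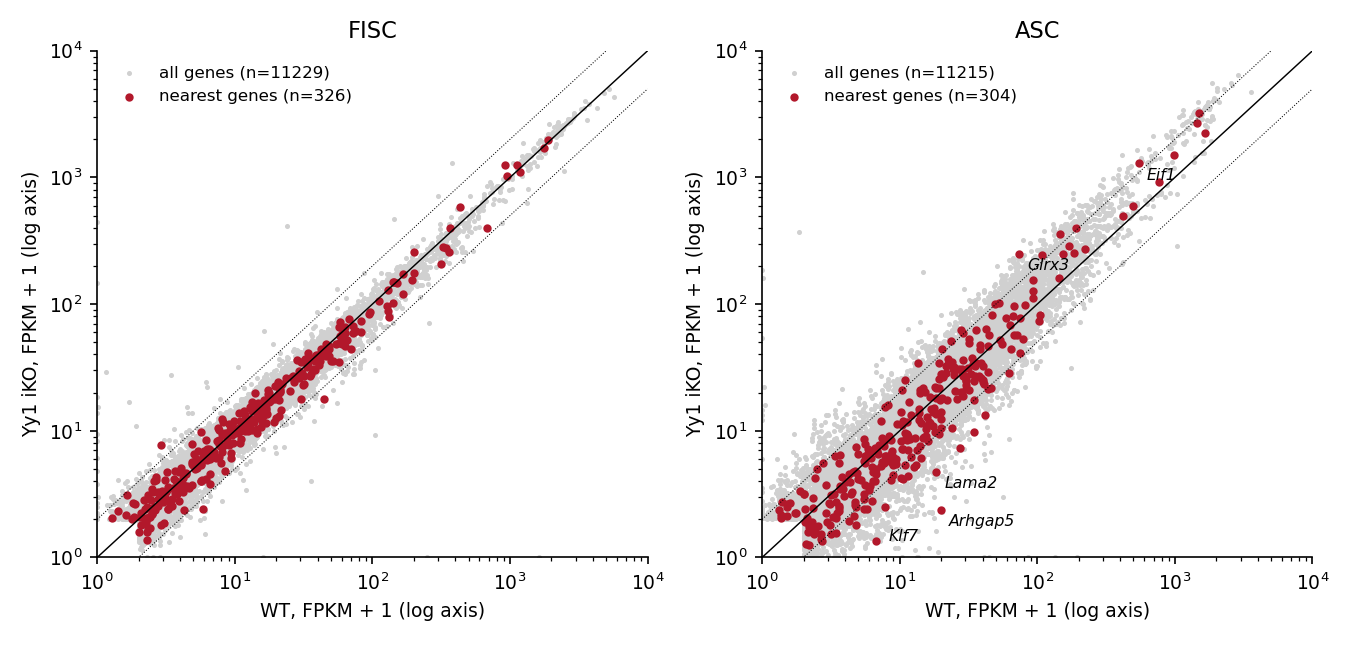
FPKM + 1 in WT (horizontal) and Yy1 iKO (vertical) on log axes, for FISC (left) and ASC (right); red points are the nearest genes of outside peaks (326 and 304) over all genes in grey, the solid line is equality and dotted lines are 2-fold. In FISC 3 red points lie beyond the dotted lines, in ASC 45.

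In FISC, with partial depletion, hardly any nearest gene differed by 2-fold. Of 326 nearest genes, 1 was at least 2-fold higher (0.307%, background 0.677%) and 2 were at least 2-fold lower (0.613%, background 0.721%). The median ratio was -0.050, against -0.0027 over all genes. The higher one was Tmeff2 (1.42), described above with the farthest peaks. Mpp7, a polarity scaffold gene 65.2 kb from its peak, was at 43.4 FPKM in FISC WT and 16.8 in FISC iKO (-1.32). P2ry2, a nucleotide receptor gene 40.9 kb from its peak, was at 4.88 FPKM in FISC WT, 1.43 in FISC iKO, 4.46 in ASC WT and 1.41 in ASC iKO (-1.27 in FISC, -1.18 in ASC), and is named here after its values were seen, since it is below 5 FPKM. Below the 2-fold limit, among genes at 5 FPKM or more, the next were Kcnma1 (-0.83), Flrt2 (-0.79), Tgfb2 (-0.77) and Odc1 (-0.76) on the low side and Tshz2 (0.78), Akr1c14 (0.68), Slc2a12 (0.64) and Dctd (0.52) on the high side.

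Among nearest genes within 50 kb of an outside peak, Ptma, Rpl29 and Odc1 had the highest levels in ASC WT. Ptma led with 1129 FPKM in FISC WT, 1264 in FISC iKO, 1666 in ASC WT and 2227 in ASC iKO. Rpl29, a ribosomal protein gene 21.8 kb from its peak, was at 977 FPKM in ASC WT and 1505 in ASC iKO. Odc1, the first enzyme of polyamine synthesis, was 38.5 kb away and at 764 and 914 FPKM. Eif1 followed, then Anxa2 (498 and 591 FPKM) and Tpm1 (418 and 499 FPKM), which encode an annexin and a tropomyosin. Further down were Prdx6 (184 and 253 FPKM), the proteasome gene Psmc1 (170 and 288 FPKM) and the 14-3-3 gene Ywhab (144 and 159 FPKM, 2.87 kb away). Ndufv1, of respiratory complex I, was at 92.5 and 153 FPKM, and Gorasp2 of the Golgi at 66.0 and 80.2. Prps1, of nucleotide synthesis, was at 70.6 and 56.4 FPKM and the AP-1 gene Jun at 66.5 and 55.7. They were the only 2 of the 15 that were lower in ASC iKO than in WT. The share over all genes at such levels was not computed, so this count is not a trait of these genes. Over all genes the median ASC ratio was 0.043 at 5 FPKM or more in the higher library, and -0.0025 at 1 FPKM or more. Apart from Ywhaz and Polr1d, the peaks of these 15 genes did not reach q of 0.05.

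Of the gene lists examined, immediate early genes were most often a nearest gene. These encode transcription factors and regulators that are induced within minutes of a stimulus. Of 22 in the tables, 5 (22.7%) were the nearest gene of an outside peak, against 706 of 24450 over all genes (2.89%). Their loci are nearest to 0.132% of the outside bases, which held 0.647% of the peaks (0.2103 to 1.503%). Ier2, 2.21 kb from its peak, was at 367 FPKM in FISC WT, 397 in FISC iKO, 51.8 in ASC WT and 101 in ASC iKO. Jun, 7.62 kb away, was at 435, 579, 66.5 and 55.7 FPKM in that order. Both were highest in the libraries of freshly isolated cells. Klf4 (12.1 kb) was at 193, 154, 6.92 and 5.33 FPKM. Fos (19.4 kb) was at 913, 1253, 1.76 and 4.59 FPKM, with an ASC ratio of 1.02 that made it the only one past 2-fold. Klf2 (25.5 kb) was at 15.8, 14.0, 10.6 and 6.02 FPKM. The 5 peaks had folds of 3.58 to 4.34 and none reached q of 0.05.

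The shares of the myogenic, growth factor and glycolysis lists were also above the 2.89% of all genes, on small counts. That of the chromatin list was below it. In each of these lists at most 5 members were a nearest gene. Of 21 myogenic regulators, 2 were (9.52%): Pax3, a paired-box factor of muscle progenitors 10.3 kb from its peak (3.98, 4.36, 0.732 and 1.25 FPKM), and Hey1, a Notch target 42.2 kb away (44.6, 47.8, 3.22 and 3.02 FPKM). Of 74 growth factors and morphogens, 5 were (6.76%): Tgfb2 at 3.10 kb, Wnt4 at 7.21 kb, Bmp2 at 104 kb, Vegfa at 108 kb and Vegfc at 122.7 kb. Tgfb2 was at 29.3, 16.8, 6.46 and 7.79 FPKM, lower in FISC iKO than in FISC WT. Of 16 glycolysis genes, 1 was (6.25%): Pfkp, a phosphofructokinase gene 157 kb from the nearer of 2 peaks (50.4, 34.8, 16.3 and 13.0 FPKM). Of 15 chromatin genes and YY1 partners, 0 were. Per base nearest to their loci, peaks stood at 6.39 per 10 Mb for the myogenic list, 9.14 for growth factors and 14.98 for glycolysis, against 5.12 over all outside bases, on counts of 2, 5 and 2 peaks. By symbol class, olfactory receptor genes (Olfr) were 2.12% of the nearest genes and 4.59% of all, and zinc finger genes (Zfp) 1.13% and 1.51%. Other classes went the other way. Symbols ending in Rik were 10.9% (8.70 to 13.4%) and 8.07%, and Gm symbols with a digit 6.94% (5.18 to 9.07%) and 5.07%. Hox genes were 0 of 706 against 0.180% of all.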

How the data were processed

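Polyadenylated RNA was measured in 4 libraries and YY1 chromatin in 1 library with 1 input, by paired-end sequencing. Per the submitters' processing notes, the build was mm9 and the tools were MACS2 2.1.0, Cufflinks 2.2.1 and TopHat2, with no role stated; the annotation is not stated. FPKM values, per the file headers, are the authors' levels per transcript length and library size. The deposited peak list carries the authors' score, their fold over local background, and their −log10 p and −log10 q; the deposited summit offset was not needed for the rule. The score was not used to rank.

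Peak starts were made 1-based. A peak was assigned to the closest locus of either table; ties went to plain symbols, then alphabetically. Ratios used a pseudocount of 1 and a minimum of 1 FPKM in either library, which understates the change of low genes. Scripts (Python 3.11.15, pandas 2.3.3, scipy 1.17.1) were tested on simulated data. RefSeq (GRCm38.p6) gave names, strand, gene order and printed sequences, and matched 701 of 706 nearest genes; strand was used only where gene order was kept. No mm9 genome was used here, so peaks were not searched for motifs.

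Named were the 10 peaks of highest −log10 p, the 5 nearest to and 5 farthest from a locus, the 15 most expressed nearest genes within 50 kb, the 10 highest and 10 lowest ASC ratios and the 5 highest and 5 lowest FISC ratios at 5 FPKM or more in the higher library, and nearest genes in the lists; a few items under this rule are not reported here. The members and lists were chosen with earlier results of these data known. Other windows, q limits, pseudocounts, filters and scalings were tried.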

Additional observations from a re-analysis of the deposited data

How the results depend on the processing

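Of 73 recomputed values, 46 stayed within a tolerance (1.5 times for a count, the main value's 95% interval for a median or share) and 27 moved; no median changed sign. The tolerance is wide: it holds an ASC median of -0.29 under upper-quartile scaling (-0.16 as reported), a FISC median of -0.028 within 50 kb (-0.050 as reported) and 10 in place of 15 higher genes where no other symbol overlaps the locus. A window of 5 kb moved the median distance to 66.3 kb, and counting only genes at 1 FPKM or more in ASC WT moved it to 166 kb. At −log10 q of 5 or more, 7 peaks remained, at a median of 9.53 kb, with a median fold differing by -1.56 from that of the other peaks (0 in the full list); 57.1% of their nearest genes were expressed, 0 were 2-fold higher and 0 lower, and the median ratios were -0.0076 in ASC and -0.0020 in FISC. At q of 0.05, added after seeing the data, the values were 27 peaks, 18.1 kb, -1.04, 58.3%, 2 higher, 1 lower, -0.0076 in ASC and 0% with the motif. With a pseudocount of 0.1, 30 nearest genes were 2-fold higher and 50 lower in ASC; with upper-quartile scaling 6 were higher and the FISC median was -0.0054. Genes within 50 kb gave 8 higher and 16 lower, a threshold of 5 FPKM gave 30.2% expressed, and without a filter both medians were 0, since many genes are listed at 0. The cause of the other shifts was not tested.

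No paired analysis was possible because each group is 1 library, and for the same reason no replicate was left out. Planned motif searches in the peaks were not run, as no genome of their build was used. Depth is unknown, and 382 of the 773 outside peaks share 1 tied pair of fold and −log10 p, so ranks among them carry no information.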
